A study of Arabidopsis thaliana with 12 samples.

Results

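The genes described here are loci of Arabidopsis thaliana whose response to an induced transcription factor had opposite signs early and late. They were chosen from the measurements themselves. A locus was taken when its log2 ratio of dexamethasone-treated (Dex) over mock-treated RNA had a single sign on all 4 arrays at 4 h and the other sign on all 4 arrays at 72 h, with an absolute mean of 0.3 or more at each of these times. Of 10649 named loci tested, 104 met this rule, which is 0.977%. In 72 of them the ratio was negative at 4 h and positive at 72 h, and these are called down-then-up genes (0.676% of the loci). In the other 32 it was positive at 4 h and negative at 72 h, and these are called up-then-down genes (0.3%). Since the 4 h and 72 h arrays chose the genes, values at these times are given as a description with no test. The 12 h arrays took no part in the choice, and the tests below are on them.

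The plants carried HANABA TARANU fused to the glucocorticoid receptor under the 35S promoter (35S:HAN-GR) in the Landsberg erecta background, so the fusion was not limited to the cells that normally make it, and treated and mock plants carried it alike. Inflorescences whose buds had reached stages 1 to 9 were sampled 4, 12 and 72 h after 10 µM Dex or mock treatment. Dex RNA is labelled as HAN overexpression and mock RNA as control. Each array set Dex RNA against mock RNA of the same time, with 4 arrays for each of the 3 times. The series has a 0 h time, not analysed here. No Dex-treated plants that lack the fusion are analysed here, so effects of Dex itself and of the fusion protein cannot be told apart.

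HANABA TARANU is a GATA-type zinc-finger factor that acts at the borders between the floral meristem and the organs it forms. A receptor fusion stays in the cytoplasm until the hormone binds, after which it enters the nucleus and acts on its targets. Ratios soon after induction therefore lie nearer to the direct action of the factor in time, whereas ratios after days also follow changes in which organs and cells the buds hold. In whole inflorescences a lower ratio from fewer cells of a type and from less RNA per cell cannot be told apart.

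Several facts of the whole data set touch these genes. The direction of the deposited ratio is not stated in the sources used here. Dex over mock is its likely direction. With all signs turned the down-then-up genes would become the up-then-down genes, and every gene called higher below would be lower. Were the ratio turned at 4 h alone, the 588 loci described below that kept their sign would be the reversing ones. Over the 10649 loci the means at 4 h and 72 h correlated at 0.27 (Pearson), those at 4 h and 12 h at 0.51 and those at 12 h and 72 h at 0.48. With values at the limits of the scale kept, 4 h arrays of the same labelled dye correlated between -0.82 and -0.81, so the dye labels at 4 h do not settle the direction on their own. With those values set missing, the same pairs correlated at 0.07 to 0.14, while replicates 1 and 4 correlated at 0.54 and replicates 2 and 3 at 0.60. At 12 h and 72 h the limit values were mostly positive where Dex RNA was labelled Cy5 and negative where Cy3. On 4 h replicates 1 and 3 it was the other way. The fits below that include 4 h arrays took the dye as labelled, apart from the fit with the dye read from the limit values. The 72 h replicate 3 array spread most, with a median absolute log2 ratio of 0.50 against 0.20 to 0.28 on the other arrays. The HANABA TARANU gene had no named probe, so the induced gene is not analysed here. Of the fixed markers, 2 of 10 floral bud genes, 2 of 4 anther genes and 2 of 4 green tissue genes were measured, and ratios cannot show their level. Among these, the meristem gene CLV3 lay at 0.14 ± 0.39, -1.09 ± 0.38 and -1.04 ± 2.41 at 4, 12 and 72 h (SD, n = 4 each), the tapetum regulator AMS at 0.09 ± 0.17, -0.36 ± 0.05 and -0.67 ± 0.23, and the chlorophyll-binding protein gene LHCB4.1 at -0.04 ± 0.76, -1.10 ± 0.69 and -0.48 ± 0.81. These 3 were lower at 12 h (limma adjusted p = 0.0056, 0.017 and 0.0033), while UFO, EMS1 and PORB did not pass. The part of such shifts in the ratios of the reversing genes was not tested.

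Reversal was the less frequent of the patterns with a uniform sign at both times. Of 692 loci with a single sign on the arrays of each time and means of 0.3 or more, 104 reversed (15.0%) and 588 kept their sign (5.52% of the 10649 loci), 359 of them lower and 229 higher at both times. Among the reversing genes the median ratios at 4, 12 and 72 h were -0.53, -0.11 and 0.70 in the down-then-up group, and 0.51, -0.04 and -0.60 in the up-then-down group. The late arm was the larger one in 41 of the 72 down-then-up genes and in 23 of the 32 up-then-down genes. In 6 genes, 5 of them down-then-up, both arms exceeded 1 on the log2 scale. Closest to the limit on the means were AT3G60450 inside it, with a weaker arm of 0.303, and AT5G13500 outside it, at 0.298. A further 115 unnamed probes of 7476 tested met the same rule, 84 of them down-then-up and 31 up-then-down.

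**Figure D1:**
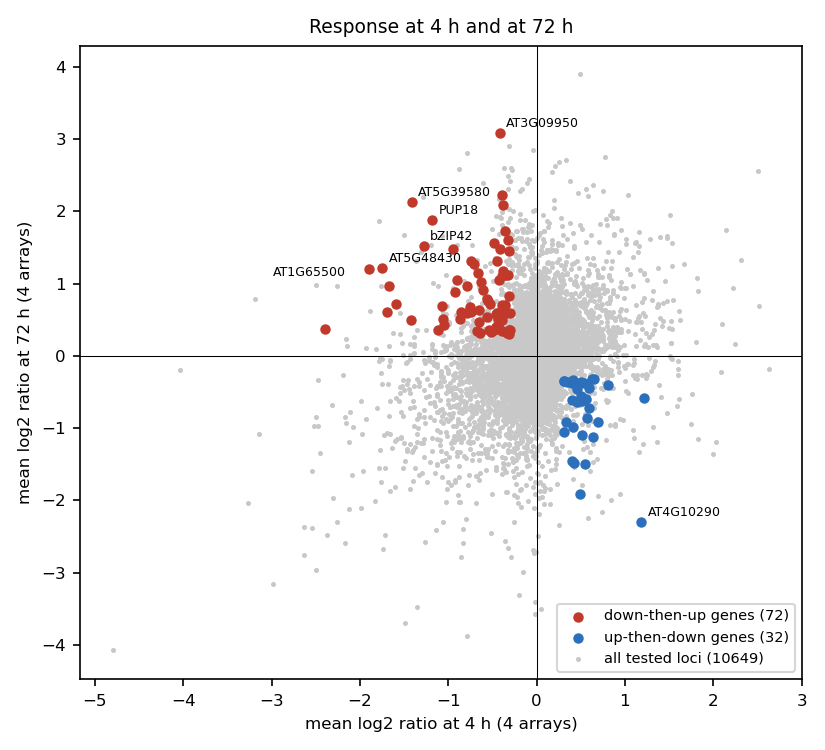
Mean log2 ratio at 72 h against that at 4 h, each over 4 arrays, for all 10649 tested loci (grey), the 72 down-then-up genes (red) and the 32 up-then-down genes (blue). The coloured genes fill the upper left and lower right because the rule selects them there, and the named ones are AT3G09950 and the 6 genes with both arms over 1.

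The 72 h replicate 3 array carried part of the late arm, by the medians more in the down-then-up than in the up-then-down genes. It held the most extreme of the 4 values at 72 h in 65 of the 104 genes, against 26, 7 and 6 for replicates 2, 4 and 1. This array also spread most over all tested features, and the same count over all loci was not made. On this array the down-then-up genes had a median of 1.34, against 0.42, 0.63 and 0.50 on replicates 1, 2 and 4. Without it the median 72 h mean was 0.52 in place of 0.70 for the down-then-up genes, and -0.55 in place of -0.60 for the up-then-down genes. The means of 18 genes, 11 down-then-up and 7 up-then-down, then lay under 0.3. The rule applied without it gave 107 genes, of which 86 were among the 104.

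**Figure D2:**
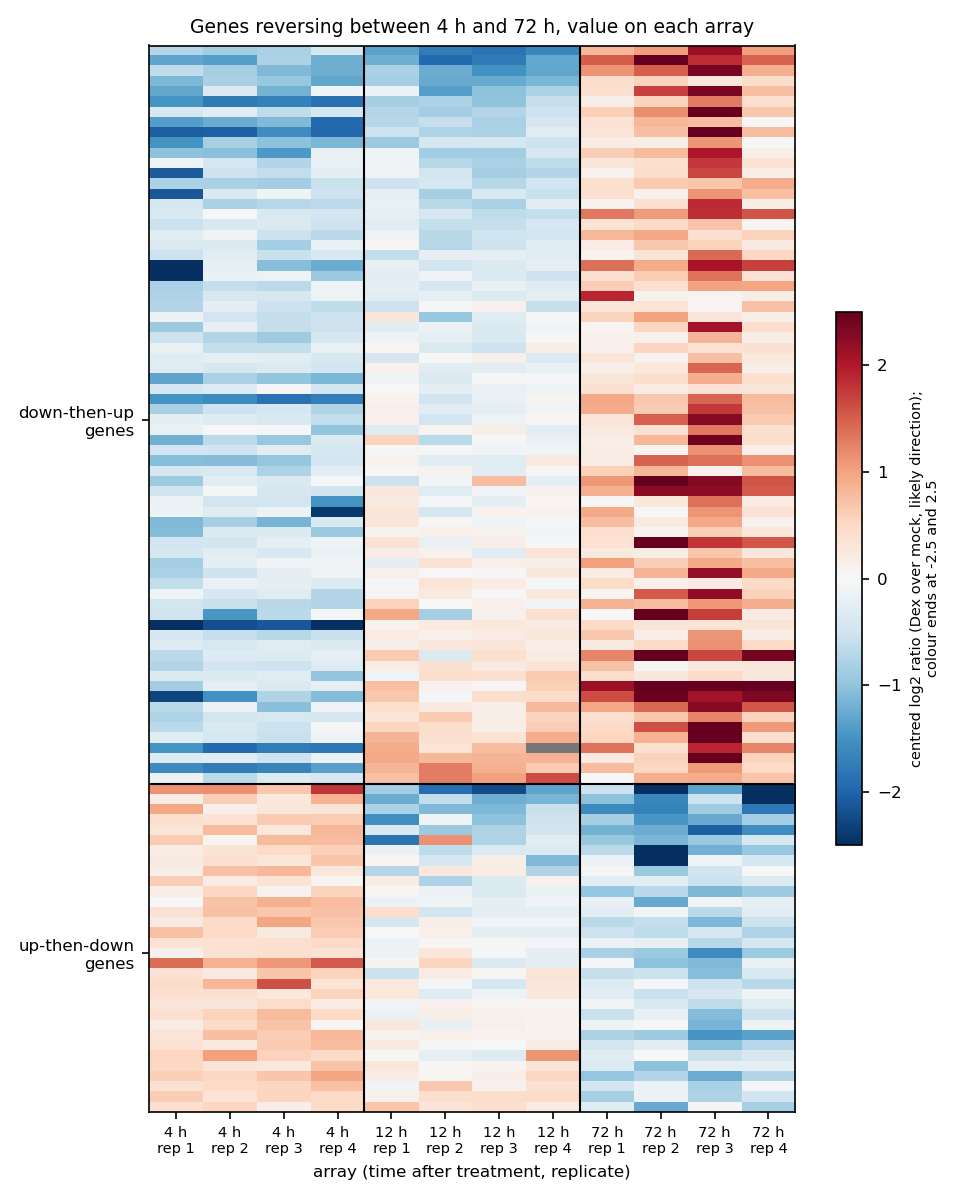
Centred log2 ratio of the 104 genes (rows, sorted by their 12 h mean within each group) on the 12 arrays (columns), red for positive, blue for negative and grey for a missing value. The 4 h and 72 h blocks have opposite colours by choice of the genes, the 12 h block holds both colours in each group, and 72 h replicate 3 is the darkest column of the down-then-up genes.

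The sign of the early and late arms was examined on arrays that had not chosen the genes. The rule was applied with 1 array at a time left out of its time point, and the sign of the genes so chosen was read on that array. At 4 h the left-out array had the sign of the rule in 85.7%, 92.8%, 86.1% and 64.2% of the genes for replicates 1 to 4. At 72 h the shares were 72.2%, 71.2%, 82.9% and 83.1%. All 8 shares lay above the share of all tested loci whose left-out array had the sign of the mean of the others, which was 60.0% to 71.5%. The genes were chosen for a single sign and a mean of 0.3 or more on the other 3 arrays, and all tested loci were not. This difference therefore follows in part from the choice and says nothing on reversal. On 6 of the 8 arrays the share lay below that of loci with a single sign and an absolute mean of 0.3 or more on the other 3 arrays of that time, which was 72.7% to 94.7%. The lowest share, that of 4 h replicate 4, came from 106 of 165 genes measured there, and this array gave the largest set when left out, 166 genes against 107 to 146 for the others.

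**Figure D3:**
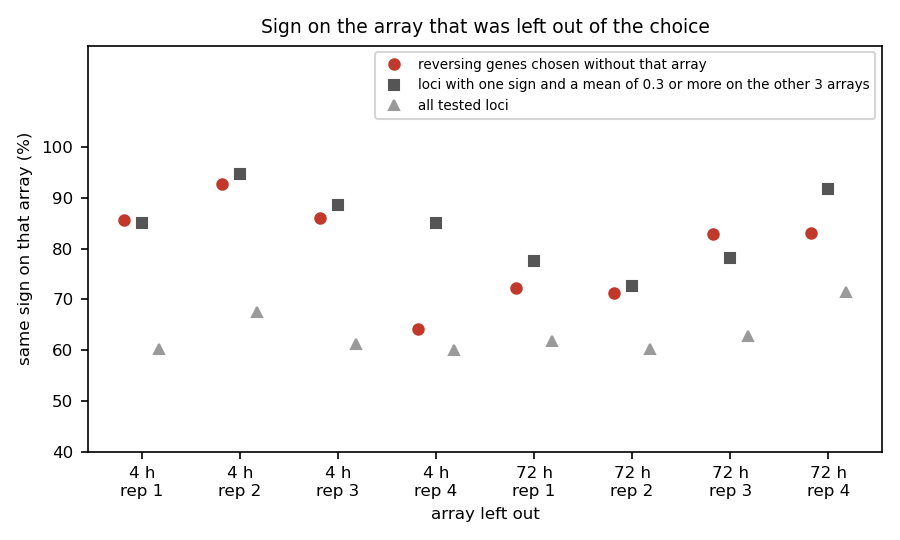
Share of genes (percent, axis starting at 40) with the sign of the rule on an array left out of the choice, for the 8 arrays of 4 h and 72 h. Circles are reversing genes, squares are loci with a single sign and a mean of 0.3 or more on the other 3 arrays, and triangles are all tested loci; the circles lie between 64.2% and 92.8%.

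At 12 h calls went both ways in each group. The share of down-then-up genes called lower stood furthest from that of all named loci, and the other shares lay nearer to it. Of the 72 down-then-up genes, 25 were lower than mock (34.7%, against 15% of all named loci) and 10 were higher (13.9%, against 9.91%), while 37 did not pass (limma on the 12 h arrays, Benjamini-Hochberg adjusted p under 0.05 over 18125 features). Of the 32 up-then-down genes, 2 were higher (6.25%) and 6 were lower (18.8%), against 9.91% and 15% of all named loci, and 24 did not pass. In either direction 43 of the 104 genes were called, against 24.9% of all named loci. Over all 18125 features, unnamed probes included, 10.4% were higher, 16.1% lower and 26.5% either. All measured 12 h arrays were positive in 14 and negative in 29 down-then-up genes, and positive in 5 and negative in 7 up-then-down genes, against 20.1% and 21.3% of all named loci. By sign, 27 of the 43 called genes had the direction of 4 h, 25 of them down-then-up and 2 up-then-down. The other 16 had the direction of 72 h, 10 of them down-then-up and 6 up-then-down. The 27 and the 16 each mix higher and lower calls, so no single share of all named loci applies to them. By group, the 25 were 34.7% against 15% of loci. The 2, 10 and 6 were 6.25%, 13.9% and 18.8%, against 9.91%, 9.91% and 15%. Medians of the 12 h mean were -0.11 and -0.04 in the down-then-up and up-then-down groups and 0.02 over all tested loci. Loci with the same sign at 4 h and 72 h differed from this, with 319 of the 359 lower ones lower at 12 h and 139 of the 229 higher ones higher at 12 h. The difference between these groups of genes was not tested, since their choice from 2 of the 3 times fixes part of it.

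The counts depended on the fit and on the arrays used to choose the genes. With all 12 arrays sharing an estimate of the spread, 12 down-then-up genes were lower at 12 h (16.7%, against 9.36% of loci) and 3 were higher (4.17%, against 4.70%). With a replicate block in that fit the numbers were 9 (12.5%, against 7.91%) and 2 (2.78%, against 3.67%). Same-numbered arrays of 4 h and 12 h deviated from their time means together (r of 0.18 to 0.30 in 4 of 4 pairs). Their limit values also had the same sign, so a pairing of samples and a dye effect cannot be told apart there. With these 8 arrays and a replicate block, a fit added after seeing the data, 14 were lower (19.4%, against 11.2%) and 7 higher (9.72%, against 6.5%). Without 12 h replicate 2 they were 10 lower (13.9%, against 9.13%) and 4 higher (5.56%, against 4.17%), and without replicate 3 they were 11 lower (15.3%, against 8.70%) and 6 higher (8.33%, against 3.98%). Without replicate 4 they were 16 lower (22.2%, against 12.4%) and 6 higher (8.33%, against 7.23%). Of the up-then-down genes, 3 were lower (9.38%) and 0 higher with all 12 arrays or the block over them. The shares of loci lower and higher were 9.36% and 4.70% with all 12 arrays, and 7.91% and 3.67% with the block. With the block over 4 h and 12 h, 4 were lower (12.5%, against 11.2%) and 0 higher (against 6.5%). Without replicate 2 or 3, 0 were higher, against 4.17% and 3.98% of loci. The rule without 4 h replicate 4 gave 121 down-then-up genes, whose 12 h median was 0.02 in place of -0.11. Of these 121, 26 were lower at 12 h (21.5%, in place of 34.7%, against 15% of loci) and 15 were higher (12.4%). The up-then-down genes lower at 12 h were then 15 of 45 (33.3%, in place of 18.8%, against 15% of loci). They were 11 of 44 (25%) without 4 h replicate 1 and 11 of 41 (26.8%) without 72 h replicate 3. Without 4 h replicate 2 the up-then-down median at 12 h was 0.01 in place of -0.04. Of the 43 calls, 9 held in each of the 9 other fits of the same centred values. Of these, 6 were down-then-up genes lower at 12 h, 1 a down-then-up gene higher at 12 h and 2 up-then-down genes lower at 12 h. The fits with all 12 arrays, a replicate block or the dye read from the limit values also took their spread from 4 h or 72 h arrays. Those arrays chose the genes, so these fits are not independent of the choice. The share of calls that held over all named loci was not counted.

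**Figure D4:**
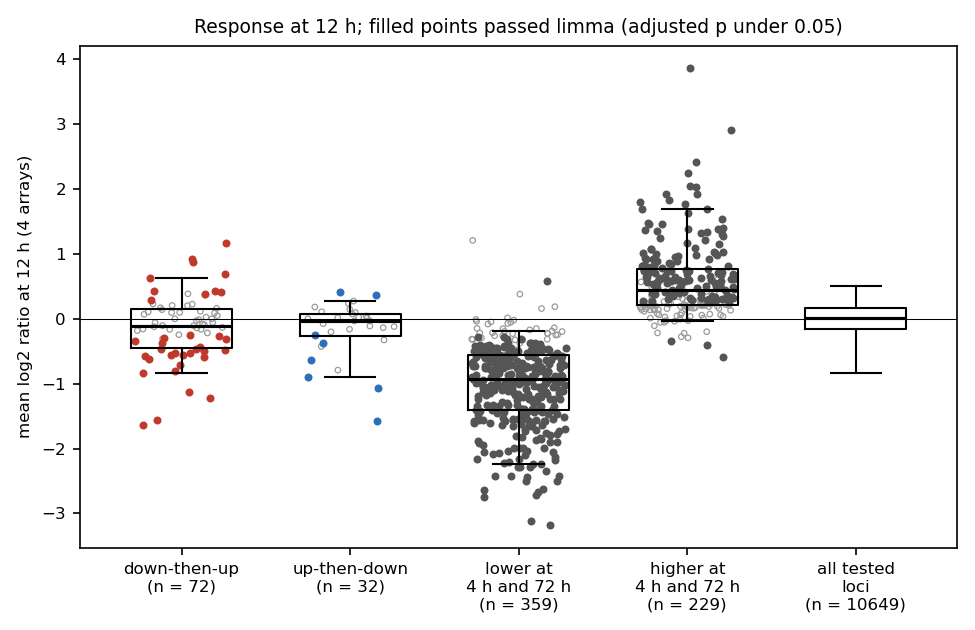
Mean log2 ratio at 12 h over 4 arrays for each reversing gene (2 left groups), for loci with the same sign at 4 h and 72 h, and for all tested loci, with boxes for quartiles, lines for medians and whiskers for the 5th and 95th percentiles. Filled points passed limma, 25 below and 10 above 0 among the 72 down-then-up genes, and 6 below and 2 above 0 among the 32 up-then-down genes.

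PUP18 had the highest 72 h mean of the 25 down-then-up genes that were lower at 12 h. It is a purine permease, of a family of membrane carriers for nucleobases, some of which also carry cytokinins. Its log2 ratio was -1.32, -1.37, -0.80 and -1.23 on the 4 h arrays, -1.23, -1.93, -1.78 and -1.28 on the 12 h arrays, and 1.51, 2.68, 1.85 and 1.47 on the 72 h arrays. All 8 early arrays lay below 0 and all 4 late ones above 1. At 12 h PUP18 was lower than mock by 1.55 in log2 units, or 2.94-fold (SD 0.35, n = 4, limma adjusted p = 0.000597). The call held in each of the 9 other fits, with adjusted p of 0.0082 or less.

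AT5G39110 had the same course with a deeper trough at 12 h. Its values were -0.72, -0.87, -0.80 and -0.42 at 4 h, -1.35, -1.75, -1.84 and -1.63 at 12 h, and 0.84, 1.05, 2.16 and 1.04 at 72 h. At 12 h it was lower than mock by 1.64 (SD 0.21, n = 4, 3.12-fold, limma adjusted p = 0.000722), the lowest 12 h mean of the 104 genes. The 72 h mean was 1.27, and 0.98 without replicate 3, which lay apart from the other 3 arrays.

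AT3G56220 and AT3G52500 followed the same order. AT3G56220 lay at -0.94 ± 0.27, -1.22 ± 0.30 and 1.48 ± 0.65 at 4, 12 and 72 h, and AT3G52500 at -1.05 ± 0.21, -1.13 ± 0.19 and 0.43 ± 0.13 (SD, n = 4 each). Both were lower than mock at 12 h (limma adjusted p = 0.0026 and 0.0014) and kept that call in each of the 9 other fits. So did AT3G19010, at -0.80 at 12 h (adjusted p = 0.0035), and AT4G01460, at -0.53 (0.0092), which are named here after their values were seen. Their means at 4 h were -1.70 and -0.76, and at 72 h 0.61 and 0.68, that of AT3G19010 being 0.38 without 72 h replicate 3.

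In 91 of the 104 genes the 12 h mean lay between those of 4 h and 72 h. The other 13 lay outside that range, 11 beyond the 4 h mean and 2 beyond the 72 h mean. The difference between the 12 h mean and the nearer of the other means was not tested. Of the 11, 10 were down-then-up genes with their lowest mean at 12 h, among them PUP18, AT5G39110, AT3G56220, AT3G52500 and MSRB5. The exception was SWEET17, an up-then-down gene.

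MSRB5 encodes a methionine sulfoxide reductase, an enzyme that returns oxidised methionine in proteins to methionine. Its ratio was -0.38, -0.01, -0.39 and -0.48 at 4 h, -0.24, -0.42, -0.64 and -0.59 at 12 h, and 1.31, 1.06, 1.85 and 1.57 at 72 h. All 8 early values lay between -0.64 and -0.01, and the late ones stood above 1. At 12 h it was lower than mock by 0.47 (SD 0.18, n = 4, limma adjusted p = 0.022). This call was lost without 12 h replicates 2, 3 or 4 and with the replicate block over all 12 arrays (adjusted p up to 0.10).

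AT1G70720 was at -0.74 ± 0.59, -0.83 ± 0.52 and 1.31 ± 0.89 at the 3 times (SD, n = 4 each) and was lower than mock at 12 h (limma adjusted p = 0.013). That call was lost without 12 h replicate 2 and with either replicate block. AT1G65500, at -1.90 ± 0.24, -0.59 ± 0.25 and 1.20 ± 1.18, was also lower than mock at 12 h (adjusted p = 0.0062). So was AT4G05240, at -0.92 ± 0.53, -0.57 ± 0.37 and 0.89 ± 0.80 (adjusted p = 0.0085). The 12 h means of AT1G65500 and AT4G05240 were less negative than those at 4 h. Neither passed with all 12 arrays in the fit, the call for AT4G05240 held in only 2 of the 9 other fits, and their late means were 0.62 and 0.51 without 72 h replicate 3. All 3 genes were low on each 4 h and 12 h array.

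The transcription factor gene bZIP42, of the basic leucine-zipper family, had the second-largest weaker arm of the down-then-up genes. Its values were -2.59, -0.21, -1.07 and -1.24 at 4 h, -0.19, -0.47, -0.36 and -0.23 at 12 h, and 1.39, 0.93, 2.06 and 1.70 at 72 h. The 4 h arrays spread widely, with replicate 1 lowest, and the 12 h arrays lay close together below 0. At 12 h it was lower than mock by 0.31 (SD 0.13, n = 4, limma adjusted p = 0.025), but the call held in only 1 of the 9 other fits.

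LOB, for LATERAL ORGAN BOUNDARIES, is the founding member of a family of plant transcription factors and is active at the base of lateral organs, at their border with the meristem. Its ratio was -3.07, -0.17, -0.14 and -0.92 at 4 h, -0.28, -0.10, -0.36 and -0.51 at 12 h, and 0.39, 0.64, 1.36 and 0.37 at 72 h. The 4 h mean of -1.07 rested largely on replicate 1, while every early array lay below 0 and every late one above it. At 12 h the mean was -0.31 ± 0.17 (n = 4), which did not pass (limma adjusted p = 0.053; 0.042 to 0.72 under the alternatives).

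Other down-then-up genes had already crossed to the late side by 12 h. AT1G27030 was at -1.58, -1.74, -1.67 and -1.36 at 4 h, 0.86, 1.28, 0.89 and 0.64 at 12 h, and 0.80, 0.52, 1.07 and 0.50 at 72 h. The 12 h and 72 h arrays overlapped, and all 8 lay above the 4 h arrays by more than the spread within a time. It was higher than mock by 0.92 at 12 h (SD 0.26, n = 4, 1.89-fold, limma adjusted p = 0.0037). It was the only down-then-up gene higher at 12 h in each of the 9 other fits.

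AT2G36770 had the highest 12 h mean of the 104 genes. Its values were -0.13, -0.67, -0.34 and -0.42 at 4 h, 0.73, 1.28, 1.03 and 1.64 at 12 h, and 0.01, 0.90, 0.92 and 0.71 at 72 h. The 12 h mean of 1.17 ± 0.39 (n = 4, 2.25-fold; limma adjusted p = 0.0089) exceeded the 72 h mean of 0.63, and the call held in 8 of the 9 other fits, with adjusted p = 0.050 without 12 h replicate 2. AT1G27030 and AT2G36770 were the 2 genes whose 12 h mean lay beyond that of 72 h.

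AT3G51660, AT5G48430 and AT5G42060 were also higher than mock at 12 h. AT3G51660 was at -0.32 ± 0.15, 0.87 ± 0.05 and 1.11 ± 1.32 at 4, 12 and 72 h (SD, n = 4 each; 12 h limma adjusted p = 0.0015). AT5G42060 was at -0.34 ± 0.20, 0.63 ± 0.30 and 1.12 ± 1.02 (adjusted p = 0.0034). AT5G48430, measured on 3 arrays at 12 h, was at -1.75 ± 0.19, 0.68 ± 0.31 and 1.21 ± 0.63 (adjusted p = 0.029). None of these 3 calls held with all 12 arrays in the fit, and the 72 h means of AT3G51660 and AT5G42060 were 0.46 and 0.62 without 72 h replicate 3.

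AT5G39580 had the largest weaker arm of all 104 genes. It was at -2.29, -1.51, -0.75 and -1.09 at 4 h, 0.67, -0.03, 0.44 and 0.45 at 12 h, and 1.62, 2.44, 2.08 and 2.34 at 72 h. The 3 times did not overlap, with 12 h in the middle. The 12 h mean of 0.38 ± 0.29 (n = 4) missed the threshold (limma adjusted p = 0.056; 0.043 to 0.33 under the alternatives).

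The remaining down-then-up genes of the 12 with the largest weaker arms were near 0 at 12 h. AT1G73550 lay at -1.67 ± 0.16, -0.13 ± 0.27 and 0.97 ± 0.35 at 4, 12 and 72 h, AT2G01300 at -0.90 ± 0.29, -0.06 ± 0.26 and 1.04 ± 0.58, and AT3G44450 at -0.78 ± 0.37, -0.08 ± 0.50 and 0.96 ± 1.01 (SD, n = 4 each). The limma adjusted p at 12 h was 0.31, 0.56 and 0.76. The 72 h mean of AT3G44450 was 0.48 without replicate 3.

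Several down-then-up genes with a symbol had a small early arm and a larger late one. scpl38, a serine carboxypeptidase-like gene of a family of secreted hydrolases and acyltransferases, was at -0.67, -0.32, -0.33 and -0.22 at 4 h, 0.65, -0.36, 0.39 and 0.21 at 12 h, and 1.23, 3.08, 1.67 and 2.39 at 72 h. The late arrays lay above all others, and the 12 h mean of 0.22 ± 0.43 (n = 4) did not pass (limma adjusted p = 0.35). UPB1 (UPBEAT1), a basic helix-loop-helix factor known in roots for repressing peroxidase genes, lay at -0.42 ± 0.31, 0.10 ± 0.12 and 1.05 ± 0.83, the last being 0.67 without replicate 3. GRI (GRIM REAPER), an extracellular protein known from cell death triggered by reactive oxygen, lay at -0.38 ± 0.17, -0.11 ± 0.26 and 1.18 ± 0.88. Neither UPB1 nor GRI passed at 12 h (limma adjusted p = 0.30 and 0.40).

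TRM19, of a family of proteins tied to the cortical microtubule array, lay at -0.46 ± 0.22, -0.03 ± 0.17 and 0.58 ± 0.33 at 4, 12 and 72 h (SD, n = 4 each). IQD26, of a family of calmodulin-binding proteins, lay at -0.33 ± 0.20, 0.11 ± 0.18 and 0.32 ± 0.18, close to the limit of the rule. At 12 h neither passed (limma adjusted p = 0.82 and 0.28). These 2 had the smallest late means of the 9 down-then-up genes with a symbol.

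**Figure D5:**
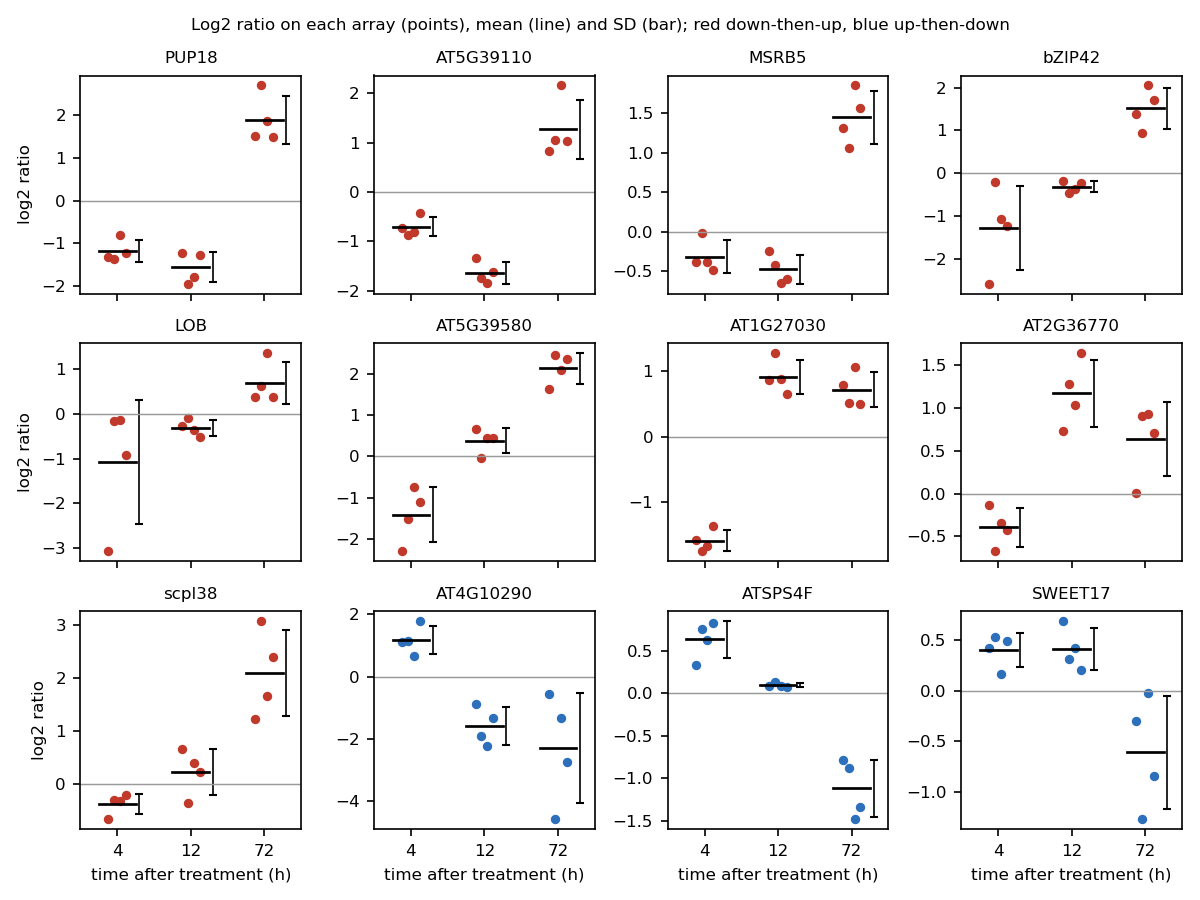
Log2 ratio on each array at 4, 12 and 72 h for 9 down-then-up genes (red) and 3 up-then-down genes (blue), with the mean as a line and the SD as a bar (n = 4 arrays; each panel has its own scale). PUP18, AT5G39110, MSRB5 and bZIP42 stay below 0 at 12 h, AT1G27030 and AT2G36770 are above 0 by then, and ATSPS4F lies near 0.

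Among the up-then-down genes AT4G10290 had the largest weaker arm and the lowest 72 h mean. Its values were 1.13, 1.14, 0.67 and 1.79 at 4 h, -0.87, -1.91, -2.23 and -1.32 at 12 h, and -0.54, -4.58, -1.32 and -2.75 at 72 h. All 8 later arrays lay below 0, and those of 72 h spread over the range of 12 h and beyond. At 12 h it was lower than mock by 1.58 (SD 0.61, n = 4, 2.99-fold, limma adjusted p = 0.0014). That call was lost with all 12 arrays in the fit (adjusted p up to 0.082).

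AT2G39110 and AT2G32880 (this one named after its values were seen) were the 2 up-then-down genes lower at 12 h in each of the 9 other fits. AT2G39110 was at 0.30, 0.79, 0.26 and 0.83 at 4 h, -0.38, -0.93, -0.75 and -0.49 at 12 h, and -1.18, -1.24, -2.04 and -1.55 at 72 h. Its 3 times did not overlap, and the ratio was lower at each later time (12 h mean -0.64 ± 0.25, n = 4; limma adjusted p = 0.0043). AT2G32880 had means of 0.43, -0.90 and -1.48 (12 h adjusted p = 0.0019). The other up-then-down genes lower at 12 h, also named after their values were seen, were AT1G73325, AT5G37420 and AT5G43830, with 12 h means of -1.06, -0.37 and -0.26. Their calls held in 6, 1 and 0 of the 9 other fits. At 12 h AT5G43830 lay at -0.73, 0.25, 0.19 and -0.75, above 0 on the 2 arrays with Dex RNA labelled Cy5 and below 0 on the others. Its call was lost with no dye term in the fit. AT5G37420 carries the synonym AGL105 (AGAMOUS-like 105), of the MADS-box factors that include regulators of floral organ identity. Its means were 0.40, -0.37 and -1.45, with limma adjusted p = 0.033 at 12 h.

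The up-then-down genes with a symbol were ATSPS4F and SWEET17. ATSPS4F, a sucrose-phosphate synthase gene of sucrose synthesis, was at 0.34, 0.76, 0.62 and 0.82 at 4 h, 0.08, 0.13, 0.09 and 0.08 at 12 h, and -0.78, -0.88, -1.48 and -1.33 at 72 h. The 12 h values lay close together just above 0, between non-overlapping early and late arrays (mean 0.09 ± 0.02, n = 4; limma adjusted p = 0.32). SWEET17, a fructose carrier of the vacuole membrane, was at 0.42, 0.53, 0.17 and 0.49 at 4 h, 0.69, 0.32, 0.42 and 0.21 at 12 h, and -0.30, -1.27, -0.02 and -0.84 at 72 h. SWEET17 was higher than mock by 0.41 at 12 h (SD 0.21, n = 4, limma adjusted p = 0.043), and the call held in 2 of the 9 other fits.

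AT1G21670 was the other up-then-down gene higher at 12 h. It lay at 0.50 ± 0.12, 0.36 ± 0.17 and -0.56 ± 0.31 at 4, 12 and 72 h (SD, n = 4 each; 12 h limma adjusted p = 0.037), and that call also held in 2 of the 9 other fits. AT1G23390 was at 0.51 ± 0.15, -0.79 ± 0.62 and -1.10 ± 0.31, below 0 on all 4 arrays at 12 h without passing (adjusted p = 0.068). AT2G20670 was at 0.57 ± 0.34, -0.43 ± 1.23 and -0.86 ± 0.32, with 12 h arrays from -1.83 to 1.14.

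The other up-then-down genes of the 12 with the largest weaker arms did not pass at 12 h. AT4G16680 lay at 0.69 ± 0.21, 0.23 ± 0.20 and -0.92 ± 0.24, and AT2G31810 at 0.60 ± 0.32, -0.11 ± 0.23 and -0.72 ± 0.27 (SD, n = 4 each). AT1G48640, at 1.22 ± 0.29, -0.0035 ± 0.40 and -0.59 ± 0.55, had the highest 4 h mean of the group. AT1G10020, AT5G14450 and AT1G02670 lay between 0.51 and 0.56 at 4 h, between -0.08 and 0.11 at 12 h and between -0.63 and -0.58 at 72 h. The limma adjusted p of these 6 genes at 12 h was between 0.11 and 0.99.

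The other 67 genes are summarised by group. Of 48 down-then-up genes, 16 were lower at 12 h (means -0.80 to -0.26), 5 were higher (0.29 to 0.43) and 27 did not pass (-0.25 to 0.36). The 5 that were higher include AT3G09950, which had the highest 72 h mean of the 104 genes, 3.09 ± 0.75, after -0.42 ± 0.30 at 4 h and 0.37 ± 0.36 at 12 h (SD, n = 4 each; 12 h limma adjusted p = 0.018, lost in 8 of the 9 other fits). The 27 include AT1G26410, with the lowest 4 h mean, -2.39 ± 0.29, followed by 0.20 ± 0.08 at 12 h and 0.37 ± 0.08 at 72 h. Both are named after their values were seen. Of 19 up-then-down genes, 4 were lower at 12 h (-1.06 to -0.26) and 15 did not pass (-0.33 to 0.27).

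By chromosome the reversing genes numbered 29, 18, 23, 13 and 21 on chromosomes 1 to 5, which is 0.835% to 1.13% of the loci of each. In the gene order of the TAIR10.1 assembly 5 pairs of members lay within 10 genes of each other, and 4 of these pairs held members of the same group. Next to each other were AT1G21670 and AT1G21680, both up-then-down, and AT5G39580 and AT5G39590, both down-then-up. AT1G21680 lay at 0.54, 0.27 and -0.37 at the 3 times, the last being -0.23 without 72 h replicate 3, and AT5G39590 at -0.39, -0.17 and 0.35, so both had the signs of their neighbours at 4 h and 72 h as the rule requires. None of the 104 genes had the same values as another tested feature.

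The tested loci were searched for 29 gene families by words in their symbols and synonyms. These words find only part of a family: UPB1 and SWEET17 carry none of the words for basic helix-loop-helix factors or transporters. No tested locus matched 9 of the 29 lists, and of the other 20 lists 3 held a reversing gene, 1 each. The transporter list had 14 measured genes, of which 4 were higher and 4 lower at 12 h (9.91% and 15% of all named loci were), and its member was PUP18. The list of bZIP and homeobox factors had 17, of which 2 were higher and 3 lower, with bZIP42 as its member. The list of proteases and their inhibitors had 49, of which 2 were higher and 7 lower, with scpl38 as its member. Only 1270 of the 10649 tested loci have a symbol other than the locus identifier, and 11 of the 104 reversing genes do, so most reversing genes could not fall in any of these lists.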

How the data were processed

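The authors deposited log2 ratios of the 2 channels of each array. Per the labels' protocols, RNA was amplified by in vitro transcription before labelling. How background, normalization and centring were handled, and which channel is on top, is not given in the sources used here. In all, 26540 rows were listed, of which 450 controls were left out. Values at the limits of plus or minus 6.64 (9.43% to 17.2% of an array's values) were set missing. Probes were named through the platform annotation and the TAIR10.1 gene table: 13954 gene probes had a locus and 12136 none. Probes of a locus were averaged. Features with 3 or more values at each time were kept (18125, with 10649 named loci), and each array was centred on their median. As deposited, the medians of arrays 1 to 4 over gene probes were -0.05, 0.07, 0.10 and -0.09 at 4 h, -0.09, 0.11, 0.12 and -0.10 at 12 h, and 0.12, -0.14, -0.26 and 0.09 at 72 h.

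The 12 h response was fitted to the 4 arrays of 12 h alone, with a term for the labelled dye (Dex RNA carried Cy5 on 2 arrays), using lmFit and eBayes of limma 3.58.1 in R 4.3.3, two-sided tests, with Benjamini-Hochberg adjustment over all 18125 features and a threshold of 0.05. In simulated 12 h data of 18125 features, 96 of 100 changes of 0.5 and 100 of 100 changes of 1 were found, with 7 false calls. All simulated features had the same spread, the median SD of the real ones, and no other features were changed. Real features differed in spread, with a 12 h SD of 0.02 for ATSPS4F and 1.23 for AT2G20670, so these rates need not hold for them. All 4 arrays of each time are biological replicates per the labels. The number of arrays limits the precision, and signal over background cannot be read from ratios.

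Genes named are the 12 of each group with the largest weaker arm (the smaller of the absolute means at 4 h and 72 h), those with a symbol, and the 5 highest and 5 lowest at 12 h among those that passed. The rule would also name members of a family list that held 2 or more of them, and none did. Clone names that contain a family's letters were not counted. The members, lists and rules were chosen with earlier results of these data known. No sequences are shown.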

Additional observations from a re-analysis of the deposited data

Results flagged for a closer look

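Among the named genes, 110 sets of 4 arrays of a time were examined for an array far from the other 3, and 4 such arrays were found; chance gives about 1 in 20 sets. At 72 h, replicate 3 was the highest for AT5G39110 (2.16, against 0.84 to 1.05 on the others) and for AT3G51660 (3.08, against 0.24 to 0.57). At 12 h, replicate 3 was the lowest for TRM19 (-0.28, against 0.02 to 0.08), and replicate 1 was the lowest for AT1G21670 (0.11, against 0.43 to 0.47). The 104 reversing genes each had one sign on every 4 h array and the other on every 72 h array, a difference between times that the rule itself selects and that was not tested.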

How the results depend on the processing

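The number of down-then-up and up-then-down genes moved with the limit on the means, to 29 and 11 at 0.5 and to 105 and 61 at 0.2. With each array of 4 h and 72 h left out in turn, these numbers ran from 66 to 121 and from 37 to 48. Of the 104 genes, 85 were also chosen with limit values kept, 98 with centring over named loci, 93 with no centring and 88 with quantile normalisation. The 12 h counts follow in the order down-then-up higher, down-then-up lower, up-then-down higher and up-then-down lower, which were 10, 25, 2 and 6. All 12 arrays in the fit gave 3, 12, 0 and 3, and the replicate block 2, 9, 0 and 3. The dye read from the limit values, added after seeing the data, gave 3 (4.17%, against 5.78% of loci), 13 (18.1%, against 10.4%), 0 and 3 (9.38%, against 10.4%). Limit values kept gave 5, 12, 0 and 7, of 71 down-then-up and 35 up-then-down genes. Adjusted p under 0.01 gave 4, 12, 0 and 4. The shares of all loci under these 2 settings were not counted, so these counts cannot be set against them. A limit of 0.5 gave 3, 13, 0 and 2, of 29 and 11 genes. Quantile normalisation gave 1 (of 33), and a limit of 0.2 gave 4 (of 61), up-then-down genes higher at 12 h. Leaving out arrays gave 4 to 15, 10 to 35, 0 to 3 and 4 to 15, and medians at 12 h of -0.16 to 0.02 and -0.20 to 0.01 for the down-then-up and up-then-down genes. Where a 4 h or 72 h array was left out the sets differed in size, as given above, so these counts are not shares. The cause of these changes was not tested. Of 554 12 h values of 37 named genes under the alternatives, 67 lost a call, 8 gained one and 0 reversed a call. The alternatives counted here include the threshold of 0.01, which changes calls but no values. Same-numbered arrays of 4 h and 12 h correlated in their deviations at 0.18 to 0.30 in 4 of 4 pairs. The 8 pairs with 72 h correlated at -0.30 to -0.06. A block over 4 h and 12 h only was fitted for this reason. The sign of the limit values followed the same pattern, alike in same-numbered arrays of 4 h and 12 h and the opposite at 72 h. A pairing of samples and a dye effect therefore cannot be told apart in these correlations. The replicate block over 4 h and 12 h, added after seeing the data, gave 7, 14, 0 and 4.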
